A study of Mus musculus with 10 samples.

Results

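Oncofetal genes of the liver were read from mouse liver RNA-seq by gene symbol. The rule named 8 genes, *Afp*, *Gpc3*, *Igf2bp1*, *Igf2bp2*, *Igf2bp3*, *Lin28b*, *Hmga1* and *Hmga2*, and 7 of them were measured among 16697 gene entries. *Lin28b* was not analysed here. The libraries were from normal liver (NL, n = 4), c-MYC tumors (n = 3) and c-MYC/FOXO1AAA tumors (n = 3). All mice were labelled wild type. The tumors were made by hydrodynamic tail vein injection, which carries plasmids into hepatocytes, where the Sleeping Beauty transposase inserts them into the genome. By the methods, the c-MYC tumors received the c-MYC plasmid with the empty vector pT3-EF1α, and the labels name c-MYC alone, whereas a figure legend of the study names MCL1 beside c-MYC for the controls of this injection. The c-MYC/FOXO1AAA tumors received c-MYC with FOXO1AAA, a MYC-tagged and constitutively active FOXO1, in the same vector. According to the methods the mice were FVB/N, whereas the strain label reads C57BL/6. The study as a whole used both sexes, and its methods do not give the sex behind each library. Age is not given in the labels. The comparison of the tumor groups asks what active FOXO1 alters in c-MYC tumors.

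Oncofetal genes are active in the fetal liver, silent or nearly so in the adult liver, and active again in many hepatocellular carcinomas. The 8 genes belong to separate branches of that program. *Afp* encodes α-fetoprotein, the fetal counterpart of albumin and the serum marker of liver cancer. *Gpc3* encodes glypican 3, a heparan sulphate proteoglycan of the cell surface. *Igf2bp1*, *Igf2bp2* and *Igf2bp3* encode RNA-binding proteins that bind *Igf2* and many other mRNAs and read N6-methyladenosine. *Lin28b* encodes a protein that blocks maturation of the let-7 microRNAs, and let-7 in turn represses *Hmga2* and *Igf2bp* mRNAs. *Hmga1* and *Hmga2* encode small chromatin proteins that bind AT-rich DNA.

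The reads in genes ranged from 13123717 to 20547746 per library. The deposited values are per scaled library size, not per read in genes. That size was 0.649 to 0.684 times the reads in genes in NL. It was 1.256 to 1.295 times in c-MYC and 1.454 to 1.502 times in c-MYC/FOXO1AAA. FPKM are thus fragments per kilobase and per 1e+06 of the scaled library size. *Foxo1*, the gene overexpressed in the c-MYC/FOXO1AAA tumors, measured 7.14 ± 0.532 FPKM (SD, n = 4) in NL and 5.63 ± 0.721 (SD, n = 3) in c-MYC tumors. With FOXO1AAA it measured 83.1 ± 12.8 FPKM (SD, n = 3), and the lowest of those libraries, at 70.1 FPKM, lay above every other library. The *Myc* entry went against the injected gene, with 11.2 ± 8.17 FPKM (SD, n = 4) in NL, 0.771 ± 0.254 (SD, n = 3) in the c-MYC tumors and 0.983 ± 0.118 (SD, n = 3) with FOXO1AAA. It was called lower in both tumor groups than in NL, by 3.61 (SE 0.50) and 3.21 (SE 0.50) on the log2 scale. Whether reads of the injected c-MYC count toward this entry was not tested, so it does not check the label of these tumors. The summed level of 8 hepatocyte markers was 107424 to 114722 FPKM in NL, 5385 to 7110 in c-MYC and 1086 to 2511 in c-MYC/FOXO1AAA. The 8 markers of proliferating cells summed to 42.4 to 66.2, 437 to 483 and 385 to 449 FPKM in the same order. The 8 markers of stellate cells and fibroblasts summed to 84.6 to 106 FPKM in NL, 12.2 to 39.7 in c-MYC and 449 to 495 in c-MYC/FOXO1AAA, and each of them had over 3 reads in some library of every group. *Dcn* held 236 ± 68.9 FPKM (SD, n = 3) of the last sum. Against NL, 6 of the 8 were called higher in c-MYC/FOXO1AAA and 1 lower, beside 31.2% and 26.6% of all tested genes. The lower one, *Lrat*, measured 3.85 ± 0.429 FPKM (SD, n = 4) in NL and 0.278 ± 0.154 (SD, n = 3) in c-MYC/FOXO1AAA, and *Reln* was not called. Of 8 T and B cell markers, 4 were measured, and they summed to 8.25 to 12.5 FPKM in c-MYC/FOXO1AAA against 1.84 to 3.30 in the other libraries, of which *Cd79a*, a chain of the B cell receptor, held 9.52 ± 2.48 FPKM (SD, n = 3). In bulk tissue, fewer cells of a type and less RNA per cell cannot be told apart. The part that these markers have in the results below was not tested.

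Different oncofetal genes were called in the comparisons. Among the 7 measured genes, *Afp*, *Igf2bp1*, *Igf2bp3* and *Hmga1* rose in c-MYC tumors against NL, *Igf2bp2* fell from an already low level, *Gpc3* did not pass the test, and *Hmga2* was at 3 reads or fewer in every library of both groups. With FOXO1AAA added, *Gpc3*, *Igf2bp2* and *Hmga2* rose against c-MYC tumors, *Afp* and *Igf2bp3* fell, and *Igf2bp1* and *Hmga1* did not pass. Against NL, *Gpc3*, *Igf2bp1*, *Igf2bp2*, *Hmga1* and *Hmga2* rose in c-MYC/FOXO1AAA tumors, *Afp* and *Igf2bp3* did not pass, and no gene fell. Genes were called by limma with a test for a change above 1.5-fold and a Benjamini-Hochberg adjusted p under 0.05, over 14017 genes with at least 1 FPKM in at least 3 libraries.

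The counts stand against a high background, because much of the transcriptome differed between the groups. In c-MYC versus NL, 24.5% of tested genes were called higher and 23.6% lower, beside 4 and 1 of the 7. In c-MYC/FOXO1AAA versus c-MYC the background was 15.9% higher and 12.7% lower, beside 3 and 2 of the 7. In c-MYC/FOXO1AAA versus NL it was 31.2% higher and 26.6% lower, beside 5 and 0 of the 7. In that last comparison 6 were higher and 0 lower at an unadjusted p under 0.05, and voom on recovered reads called 5 higher and 0 lower. The percentages of tested genes called, here and below, are for limma at an adjusted p under 0.05. They are no background for counts by voom or at an unadjusted p. The 7 genes entered the test unequally. *Igf2bp2* and *Hmga2* reached 1 FPKM only in the 3 c-MYC/FOXO1AAA libraries, so that they passed the filter through the group in which they are high, and their counts, fold changes and p-values are a description, not support for a difference. *Igf2bp3* reached 1 FPKM in the 3 c-MYC libraries and 1 c-MYC/FOXO1AAA library, so it passed through c-MYC tumors, in which it is high. *Igf2bp1* reached 1 FPKM only in the tumors, in which it is high. The values of *Igf2bp3*, and those of *Igf2bp1* against NL, are likewise a description.

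The comparisons share their libraries and depend on the scale. The median log2 fold change over all tested genes was 0.08 for c-MYC tumors and 0.21 for c-MYC/FOXO1AAA tumors against NL, and 0.03 between the tumors. Rescaling the libraries to an equal FPKM total moved these medians to 1.01, 1.31 and 0.20. The share of calls that were higher then went from 51.0% to 78.8%, from 54.0% to 79.5% and, between the tumors, from 55.5% to 63.6%. *Gpc3* in c-MYC versus NL, which was not called, turned its direction under that rescaling.

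**Figure D1:**
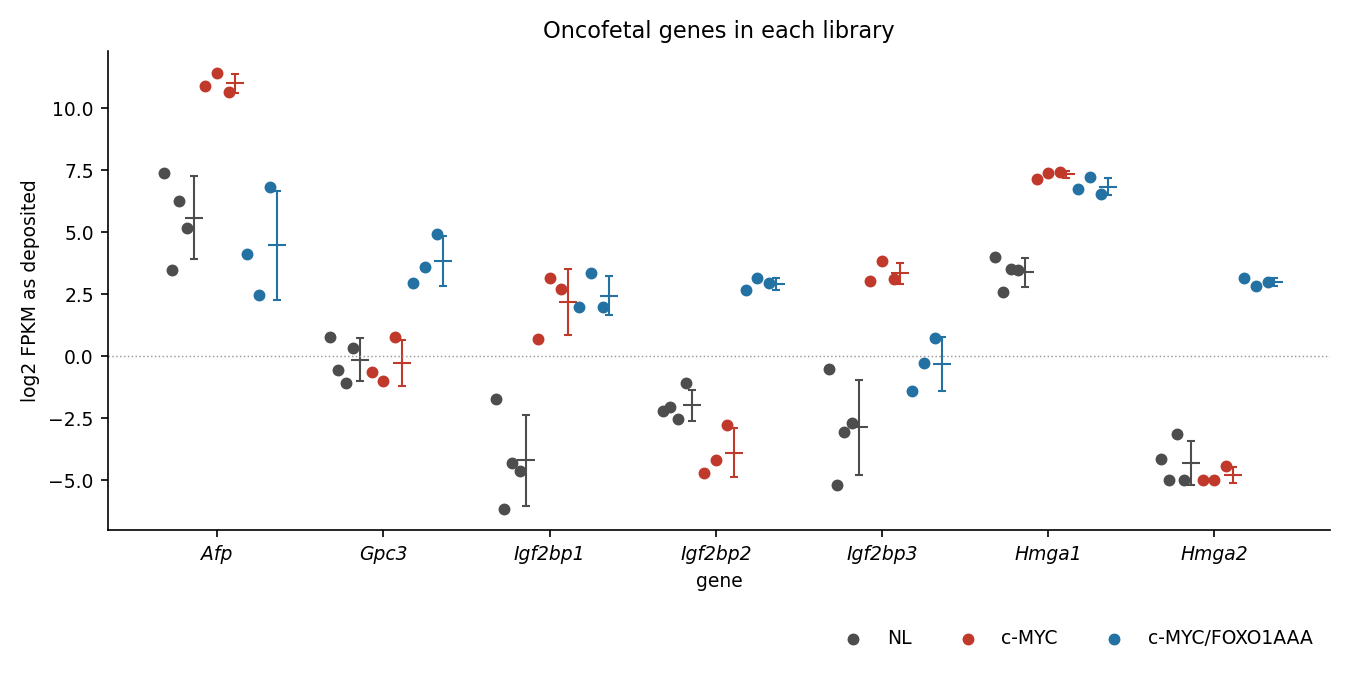
Deposited log2 FPKM of the 7 measured oncofetal genes (points, 1 per library) in NL, c-MYC and c-MYC/FOXO1AAA, with the group mean and SD beside each set of points. *Hmga2* and *Igf2bp2* lie at 2.68 or more in the 3 c-MYC/FOXO1AAA libraries and at −1.08 or less in the other 7, while *Afp* lies at 10.67 or more in the 3 c-MYC libraries.

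*Afp* lies at chr5:90490737-90508907 on the plus strand of GRCm38, beside *Alb* in the albumin gene cluster. Its level was 169, 11.1, 76.9 and 36.6 FPKM in NL 1 to NL 4. It was 1879, 2781 and 1635 FPKM in the 3 c-MYC libraries, and 17.3, 5.56 and 112 FPKM in the 3 c-MYC/FOXO1AAA libraries. The c-MYC libraries stood apart from all others, whereas NL and c-MYC/FOXO1AAA overlapped. On the log2 scale *Afp* rose by 5.42 (SE 1.03) in c-MYC versus NL, with an adjusted p of 0.00153 in limma. It fell by 6.53 (SE 1.10) in c-MYC/FOXO1AAA versus c-MYC, with an adjusted p of 0.00109. The difference of c-MYC/FOXO1AAA from NL was −1.12 (95% interval −3.41 to 1.18), with an adjusted p of 0.524. Within these last groups *Afp* varied widely. Without c-MYC/FOXO1AAA 3 the group mean went from 44.9 to 11.4 FPKM, and without NL 1 the NL mean went from 73.4 to 41.5 FPKM.

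The order of *Afp* and albumin was turned in c-MYC tumors. *Alb*, the gene of the major plasma protein of the adult liver, measured 43168 ± 2535 FPKM (SD, n = 4) in NL and 837 ± 519 (SD, n = 3) in c-MYC tumors, and it measured 641 ± 238 (SD, n = 3) with FOXO1AAA. The *Afp* level was 0.0248% to 0.374% of the *Alb* level in NL, 194% to 367% in c-MYC and 0.611% to 20.2% in c-MYC/FOXO1AAA, and the 3 ranges did not overlap. By an exact permutation test (2-sided), the ratio gave p = 0.0571 for each tumor group against NL and p = 0.10 between the tumor groups. These are the smallest p-values that 3 against 4 and 3 against 3 libraries allow. Adjusted over the 18 ratio tests run by exact permutation they were 0.129 and 0.137. *Gc* and *Afm*, the vitamin D binding protein and afamin genes of the same cluster, did not rise with *Afp* in c-MYC versus NL. Both fell, as *Afp* did, in c-MYC/FOXO1AAA versus c-MYC. All 3 of *Alb*, *Gc* and *Afm* fell in c-MYC versus NL. *Afm* fell further by 2.50 (SE 0.19) and *Gc* by 2.42 (SE 0.20) in c-MYC/FOXO1AAA versus c-MYC, where *Alb* had a log2 fold change of −0.28 (SE 0.36) and was not called.

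**Figure D2:**
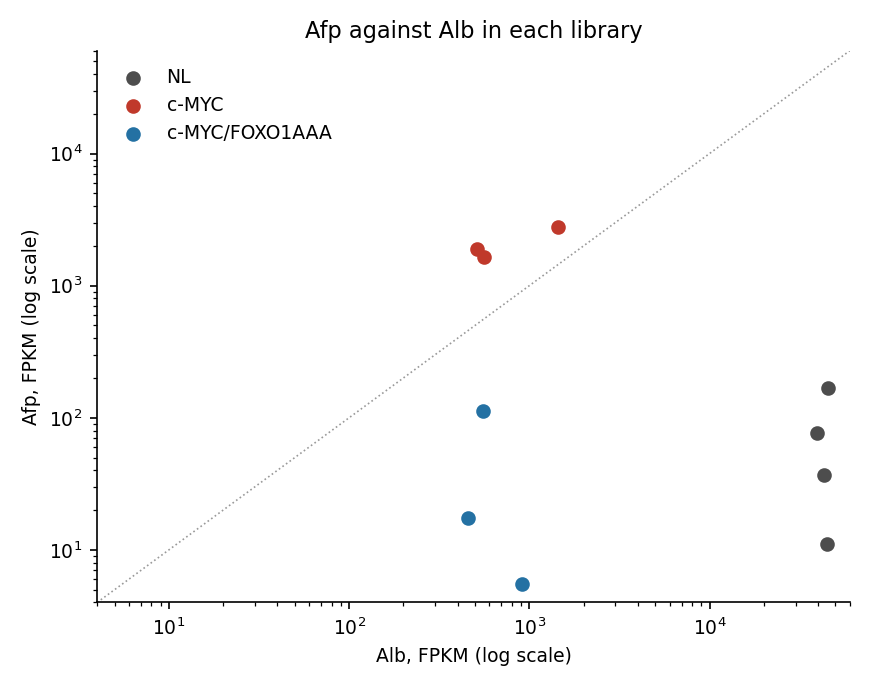
*Afp* against *Alb* in each library, both in FPKM on log axes, with the dotted line marking equal levels. The 3 c-MYC libraries lie above the line, and the c-MYC/FOXO1AAA libraries share their range of *Alb* but lie below it with *Afp* between 5.56 and 112 FPKM.

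The sequence before the *Afp* start is shown because *Afp* was the measured gene with the highest level in any library. In RefSeq (GRCm38.p6) the 300 bases around the start lie at chr5:90490464-90490763 on the plus strand, printed 5′ to 3′ with the match to TATAAA in capitals.
Afp: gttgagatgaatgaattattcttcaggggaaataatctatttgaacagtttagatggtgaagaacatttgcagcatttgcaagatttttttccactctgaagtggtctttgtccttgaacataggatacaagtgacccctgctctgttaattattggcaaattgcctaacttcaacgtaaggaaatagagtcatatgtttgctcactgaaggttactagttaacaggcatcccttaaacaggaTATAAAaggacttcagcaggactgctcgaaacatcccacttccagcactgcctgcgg
TATAAA, the letters of a TATA box, was searched on both strands, with CACGTG, the E-box bound by MYC and MAX, and GTAAACA, a forkhead motif. TATAAA occurred in 13.6% of 32851 windows of this length and in 7.90% of the 13040 windows of tested genes. In the *Afp* window TATAAA began at position −7 from the RefSeq start around which the window was cut. The GENCODE start given above, chr5:90490737, lies further downstream, so TATAAA is further from that start. The *Afp* window was the only one among the measured genes that held it, and the windows covered 6 of the 7, *Igf2bp1* not being among them.

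Factors that act on *Afp* moved in both directions. Of 17 listed regulators, all were tested. In c-MYC versus NL 2 rose and 9 fell, beside 24.5% and 23.6% of all tested genes. The median log2 fold change was −1.56 against 0.08 over all genes. Between the tumor groups 4 rose and 6 fell, beside 15.9% and 12.7%, with a median of 0.15 against 0.03. Some repressors were lowest in c-MYC tumors. *Zbtb20*, which encodes the zinc finger repressor that silences *Afp* after birth, measured 6.64 ± 1.64 FPKM (SD, n = 4) in NL and 0.162 ± 0.0125 (SD, n = 3) in c-MYC tumors, and it measured 1.34 ± 0.228 (SD, n = 3) with FOXO1AAA. Its log2 fold change was −5.32 (adjusted p = 4.05e-08) and then 3.03 (adjusted p = 1.81e-05) in limma. *Zhx2*, a repressor known from strains that keep *Afp* on, went from 4.23 ± 0.457 to 1.51 ± 0.656 and 4.52 ± 0.465 FPKM (SD, n = 4, 3 and 3). It fell by 1.56 (SE 0.25) and rose by 1.66 (SE 0.27).

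Several activators were lower with FOXO1AAA. *Hnf4a*, which encodes the nuclear receptor that directs hepatocyte identity, measured 183 ± 14.3 FPKM in NL, 94.4 ± 15.5 in c-MYC and 7.17 ± 3.47 in c-MYC/FOXO1AAA (SD, n = 4, 3 and 3). It fell by 3.81 (log2, SE 0.27) between the tumor groups, *Nr5a2* fell by 3.45 (SE 0.37) and *Foxa3* by 3.21 (SE 0.27), and none of the 3 was called in c-MYC versus NL. *Foxa1*, a pioneer factor, fell by 4.67 (SE 1.24) in c-MYC versus NL, with levels from 0.0537 to 6.88 FPKM among the c-MYC libraries. *Nfib*, a nuclear factor I gene, fell by 2.79 (SE 0.10) there and rose by 2.51 (SE 0.11) with FOXO1AAA. The 2 listed regulators that rose in c-MYC versus NL, whatever their direction on *Afp*, were *Trp53* and *Tcf3*. They rose by 2.17 (SE 0.17) and 1.91 (SE 0.13) and were not called between the tumors.

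**Figure D3:**
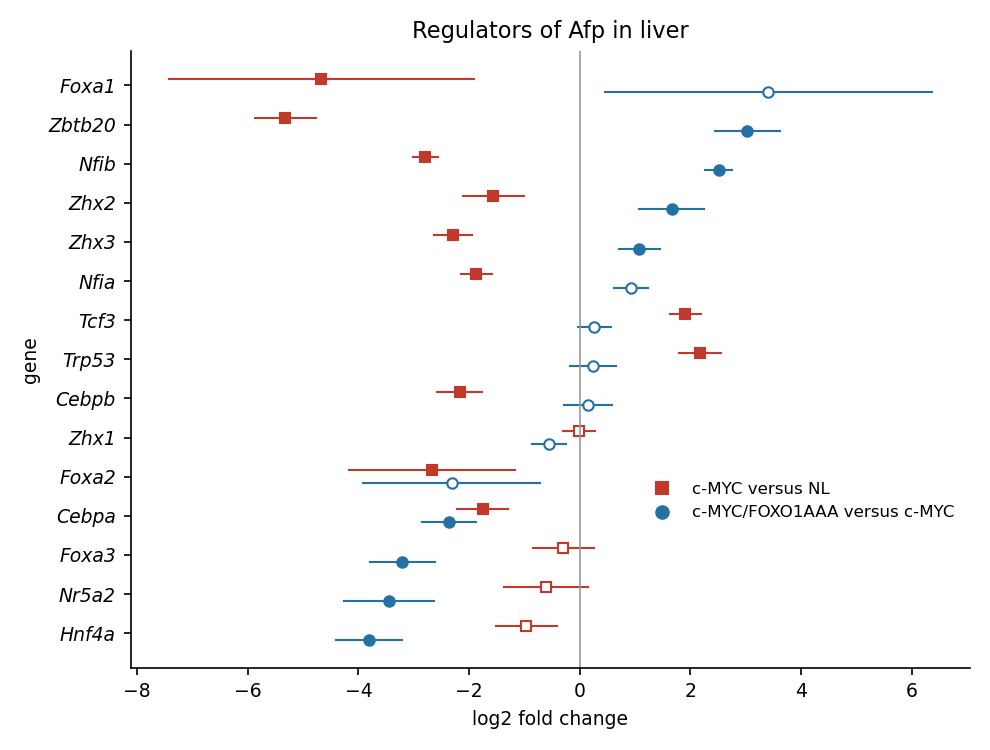
Log2 fold changes of listed regulators of *Afp* with 95% intervals in c-MYC versus NL (squares) and c-MYC/FOXO1AAA versus c-MYC (circles), filled where called. *Zbtb20*, *Nfib*, *Zhx2* and *Zhx3* are called lower in the first and higher in the second, while *Hnf4a*, *Nr5a2* and *Foxa3* are called lower only in the second.

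*Gpc3* lies at chrX:52272426-52613950 on the minus strand. Its level was 1.73, 0.676, 0.469 and 1.26 FPKM in NL 1 to NL 4, and 0.644, 0.509 and 1.70 FPKM in c-MYC. In the c-MYC/FOXO1AAA libraries it was 7.75, 12.2 and 30.7 FPKM. The c-MYC tumors thus overlapped normal liver, and all c-MYC/FOXO1AAA libraries lay above both. In c-MYC versus NL the log2 fold change was −0.15 (95% interval −1.49 to 1.19), with an adjusted p of 1.0 in limma. *Gpc3* rose by 4.12 (SE 0.64) in c-MYC/FOXO1AAA versus c-MYC (adjusted p = 8.46e-04) and by 3.97 (SE 0.60) against NL (adjusted p = 3.03e-04). Without c-MYC/FOXO1AAA 3 the mean of that group, 16.9 FPKM, was 1.69 times lower, and without c-MYC 3 the c-MYC mean went from 0.95 to 0.576 FPKM.

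Among the other glypicans, *Gpc1* and *Gpc6* were also highest with FOXO1AAA. *Gpc1* measured 1.04 ± 0.236 FPKM in NL, 0.132 ± 0.0573 in c-MYC and 27.8 ± 6.92 in c-MYC/FOXO1AAA (SD, n = 4, 3 and 3). It rose by 7.77 (SE 0.34) between the tumor groups and fell by 3.03 (SE 0.32) in c-MYC versus NL. *Gpc6* rose by 4.09 (SE 0.81) between the tumor groups, to 5.18 ± 1.06 FPKM (SD, n = 3), whereas *Gpc4* had a log2 fold change of −0.35 (SE 0.14) and was not called. Of 19 listed genes for glypicans, their release and heparan sulphate synthesis, 15 were tested. In c-MYC versus NL 1 rose and 6 fell, beside 24.5% and 23.6% of all tested genes, with a median of −0.70 against 0.08. In c-MYC/FOXO1AAA versus c-MYC 4 rose and 2 fell, beside 15.9% and 12.7%, with a median of −0.13 against 0.03.

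Enzymes that act on glypicans were among the genes that fell. *Notum*, whose product cleaves the lipid anchor of glypicans, fell by 7.52 (SE 0.40) in c-MYC versus NL, from 20.6 ± 3.21 to 0.127 ± 0.0738 FPKM (SD, n = 4 and 3). *Gpld1*, the gene of a phospholipase that releases anchored proteins, fell by 3.88 (SE 0.37). *Ext1*, a polymerase of heparan sulphate, fell by 2.27 (SE 0.17) in c-MYC versus NL and rose by 1.34 (SE 0.18) with FOXO1AAA. *Hs2st1*, a sulphotransferase, rose by 1.18 (SE 0.12) in c-MYC versus NL. *Hs6st1*, another sulphotransferase, and *Furin*, the protease that processes glypican 3, fell by 1.29 (SE 0.14) and 1.22 (SE 0.13) in c-MYC/FOXO1AAA versus c-MYC.

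The *Igf2bp* genes made up different shares of their sum in the libraries of the tumor groups. *Igf2bp1* (chr11:95957163-96005940, minus strand) measured 0.306, 0.0141, 0.0508 and 0.0407 FPKM in NL 1 to NL 4, where NL 2 held no read and NL 1 held 27. It measured 1.60, 8.97 and 6.50 FPKM in c-MYC and 3.98, 10.2 and 3.98 FPKM in c-MYC/FOXO1AAA. Both tumor groups lay above all NL libraries and overlapped each other. As a description, since *Igf2bp1* passed the filter only through tumors, it rose against NL by 6.37 (SE 0.95, adjusted p = 2.63e-04 in limma) in c-MYC. In c-MYC/FOXO1AAA it rose by 6.64 (SE 0.95, adjusted p = 1.43e-04) against NL. Between the tumor groups the log2 fold change was 0.26 with a 95% interval of −2.0 to 2.52, which leaves room for a change in either direction. Without c-MYC/FOXO1AAA 2 the mean of that group went from 6.05 to 3.98 FPKM.

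*Igf2bp2* (chr16:22059009-22163299, minus strand) was nearly absent from c-MYC tumors. Its level was 0.215, 0.245, 0.172 and 0.473 FPKM in NL, and 0.0385, 0.0557 and 0.145 FPKM in c-MYC, where the libraries held 0, 1 and 6 reads. With FOXO1AAA it was 6.39, 8.91 and 7.76 FPKM. These 3 libraries were close to each other and far above the rest. As a description, since the gene entered the test through this group, the fitted log2 fold change was 6.81 (SE 0.51) against c-MYC and 4.90 (SE 0.48) against NL. The fall of 1.92 (SE 0.48, adjusted p = 0.0211) in c-MYC versus NL rests on 7 against 28 reads, a ratio of 0.176 per scaled library size (95% interval for counting error 0.0651 to 0.413). It was not called without NL 4 (adjusted p = 0.0544), c-MYC 1 (0.0957) or c-MYC 2 (0.0673), and over all alternatives its adjusted p ranged from 0.00255 to 1.0. Without c-MYC 3 the c-MYC mean went from 0.0796 to 0.0471 FPKM.

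*Igf2bp3* (chr6:49085223-49214957, minus strand) was the main *Igf2bp* gene of c-MYC tumors. Its level was 0.694, 0.0273, 0.122 and 0.155 FPKM in NL 1 to NL 4, with no read in NL 2. It was 8.29, 14.5 and 8.72 FPKM in c-MYC and 0.373, 0.83 and 1.67 FPKM with FOXO1AAA. The c-MYC libraries lay above all others, and c-MYC/FOXO1AAA overlapped NL through NL 1. *Igf2bp3* passed the filter through c-MYC tumors, so its fits are a description. It rose by 6.21 (SE 0.91, adjusted p = 2.43e-04 in limma) in c-MYC versus NL. It fell by 3.66 (SE 0.97, adjusted p = 0.0226) with FOXO1AAA. That fall was not called without c-MYC 2 (adjusted p = 0.0731), c-MYC/FOXO1AAA 1 (0.0896) or c-MYC/FOXO1AAA 2 (0.0542), nor with a 2-fold threshold (0.0557) or the replicate number as a block (0.0582), and its adjusted p ranged from 8.12e-05 to 0.0896 over the alternatives. In c-MYC/FOXO1AAA versus NL the log2 fold change of *Igf2bp3* was 2.54 (SE 0.91) and missed the threshold (adjusted p = 0.0544). It passed without NL 1, with a log2 fold change of 3.32 (adjusted p = 0.00430), and without c-MYC/FOXO1AAA 1, with 3.10 (adjusted p = 0.0385). Without c-MYC/FOXO1AAA 3 the mean of that group went from 0.957 to 0.601 FPKM.

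Summed over *Igf2bp1*, *Igf2bp2* and *Igf2bp3*, the level was 0.629 ± 0.426 FPKM in NL, 16.3 ± 6.82 in c-MYC and 14.7 ± 4.72 in c-MYC/FOXO1AAA (SD, n = 4, 3 and 3). The sums of the tumor groups overlapped, and 3 against 3 libraries cannot pass 0.05 in an exact permutation test (2-sided, p = 0.700, smallest possible 0.10). *Igf2bp3* supplied 67.3% ± 14.3 of that sum in c-MYC and 6.69% ± 5.0 in c-MYC/FOXO1AAA (SD, n = 3). *Igf2bp2* supplied 0.522% ± 0.371 and 54.0% ± 8.09 (SD, n = 3). The ranges of both shares were apart between the tumors, at the smallest exact permutation p of 0.10 that 3 against 3 libraries allow, and the adjusted p was 0.137. *Igf2bp1* supplied 32.2% ± 14.1 and 39.3% ± 10.9 (SD, n = 3), which overlapped. The NL shares rest on 6 to 65 reads over the 3 genes in a library and ranged from 17.7% to 85.6% for *Igf2bp2*.

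**Figure D4:**
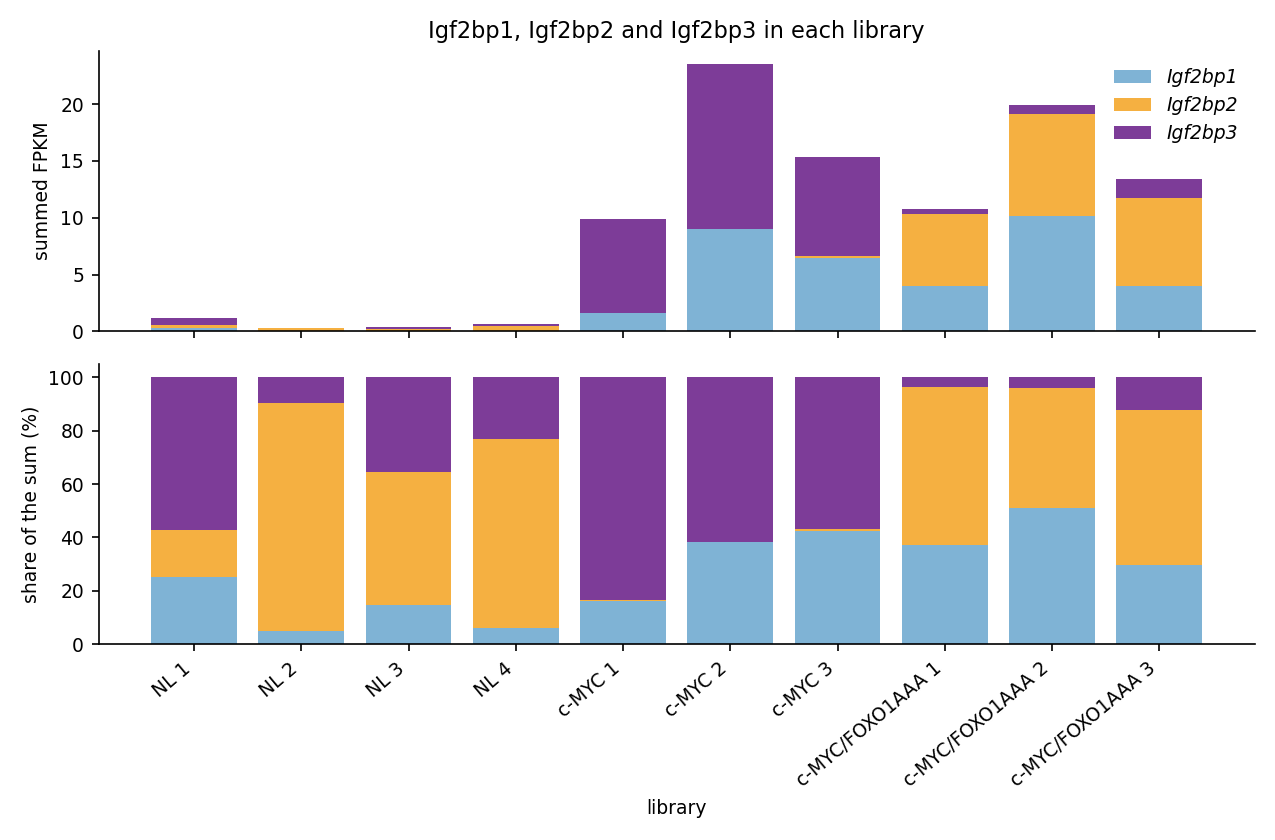
Levels of *Igf2bp1*, *Igf2bp2* and *Igf2bp3* stacked per library in FPKM (upper) and as a share of their sum (lower). *Igf2bp3* makes up 56.8% to 83.5% in the c-MYC libraries, and *Igf2bp2* 44.7% to 59.5% in the c-MYC/FOXO1AAA libraries.

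The *Igf2bp3* promoter is shown because it was the only one of the 6 measured genes with a window that held CACGTG, and it held 2 copies. It lies at chr6:49214905-49215204 on the minus strand (RefSeq, GRCm38.p6), printed 5′ to 3′ with CACGTG in capitals.
Igf2bp3: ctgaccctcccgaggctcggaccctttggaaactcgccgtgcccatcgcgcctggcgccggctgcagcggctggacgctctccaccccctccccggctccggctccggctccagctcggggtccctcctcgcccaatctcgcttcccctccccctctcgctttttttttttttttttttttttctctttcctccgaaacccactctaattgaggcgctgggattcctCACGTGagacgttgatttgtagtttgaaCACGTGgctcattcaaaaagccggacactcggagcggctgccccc
CACGTG occurred in 7.15% of the 32851 windows and in 9.81% of the 13040 windows of tested genes. *Afp* and *Hmga1*, which also rose in c-MYC tumors, had no CACGTG in their windows.

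*Igf2* and the partners of the IGF2BP proteins were compared next. *Igf2*, the fetal growth factor gene, measured 11.6 ± 11.8 FPKM in NL, 480 ± 138 in c-MYC and 286 ± 6.92 in c-MYC/FOXO1AAA (SD, n = 4, 3 and 3). It rose by 6.04 (SE 0.76) in c-MYC versus NL, with a difference of −0.71 (SE 0.82) between the tumor groups that was not called. All 19 listed partners of the IGF2BP proteins and genes of the m6A machinery were tested. In c-MYC versus NL 8 rose and 0 fell, beside 24.5% and 23.6% of all tested genes. Their median was 0.74 against 0.08 over all genes. *Pabpc1*, which encodes the poly(A)-binding protein, rose by 1.90 (SE 0.12), *Syncrip*, the gene of an RNA-binding partner, by 1.55 (SE 0.09), and *Ybx1* by 1.38 (SE 0.10). *Mettl3*, the methyltransferase gene, had a log2 fold change of 0.74 (SE 0.16) and was not called. In c-MYC/FOXO1AAA versus c-MYC 0 of the 19 were called by limma, 0 at an unadjusted p under 0.05 and 0 by voom, with a median of 0.14. Of all tested genes, 15.9% were called higher and 12.7% lower in that comparison by limma. With an equal FPKM total, 19 were called in c-MYC versus NL. Under that scaling 7061 of all 14017 tested genes were called higher and 1895 lower, with a median of 1.01.

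Sites for let-7 join several of these genes and are shown to let the seed be compared. The mature let-7 sequences are from RefSeq, with bases 2 to 8, the seed, in capitals. They were not measured in these libraries.
mmu-let-7a-5p: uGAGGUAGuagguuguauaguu
mmu-let-7g-5p: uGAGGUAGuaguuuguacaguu
mmu-miR-98-5p: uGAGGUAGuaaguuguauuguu
The complement of the seed, CTACCTC, was searched in the longest annotated 3′ UTR of each gene (GENCODE M21, GRCm38). It occurred at least once in 10.2% of the 3′ UTRs of 12271 tested genes, and 3 or more times in 0.171%. *Igf2bp1* and *Hmga2* held 4 matches each, *Igf2bp2*, *Igf2bp3* and *Hmga1* held 1 each, and *Afp* and *Gpc3* held 0. As many matches as in *Igf2bp1* were found in 0.249% of 1608 UTRs of like length, and as many as in *Hmga2* in 0.120% of 4164. The matches of *Igf2bp2* and *Igf2bp3* were less rare, at 11.3% and 12.4% of UTRs of like length. These sites, with the match in capitals, were followed by A, which lengthens the usual let-7 site:
Igf2bp1 (chr11:95961771-95961793, minus strand): gaagtaaaCTACCTCaaggtgtg
Igf2bp2 (chr16:22059466-22059488, minus strand): aataaaagCTACCTCaggtgttt
Igf2bp3 (chr6:49086780-49086802, minus strand): ttactcaaCTACCTCaggtattc
Hmga2 (chr10:120364217-120364239, minus strand): ttcaatttCTACCTCagcatcag
Genes with matches did not move as a group. *Igf2bp1* and *Hmga2*, with 4 matches each, are an example from c-MYC tumors, where *Igf2bp1* rose and *Hmga2* held 0 or 1 read per library.

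Genes that process let-7 mostly rose with c-MYC, and few changed with FOXO1AAA. Of 14 listed genes of LIN28 and let-7 processing and decay, 11 were tested. In c-MYC versus NL 8 rose and 1 fell, beside 24.5% and 23.6% of all tested genes, with a median of 1.29 against 0.08. *Trim71*, which encodes a let-7 target that restrains differentiation, rose by 5.07 (SE 0.71), from 0.276 ± 0.242 to 6.71 ± 1.36 FPKM (SD, n = 4 and 3). It fell by 3.39 (SE 0.76) with FOXO1AAA and was the only one of the 11 called in that comparison. Of all tested genes, 15.9% were called higher and 12.7% lower there. *Drosha*, the nuclease that starts microRNA processing, rose by 2.22 (SE 0.17) in c-MYC versus NL. *Tut4* and *Tut7*, whose products add uridine to let-7 precursors with LIN28, went apart, by 1.29 (SE 0.14) and −1.27 (SE 0.13).

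Of 14 other let-7 targets listed, 10 were tested. In c-MYC versus NL 7 rose and 1 fell, beside 24.5% and 23.6% of all tested genes. In c-MYC/FOXO1AAA versus c-MYC 2 rose and 2 fell, which is near the 15.9% and 12.7% of all tested genes. *Arid3a*, a DNA-binding factor, rose by 5.03 (SE 0.56) and then fell by 4.21 (SE 0.59), with levels of 0.796 ± 0.645, 20.6 ± 3.91 and 1.17 ± 0.450 FPKM (SD, n = 4, 3 and 3). *Igf1r*, the receptor for IGF1 and IGF2, measured 0.216 ± 0.0524, 0.153 ± 0.0819 and 14.4 ± 1.51 FPKM (SD, n = 4, 3 and 3), and it rose by 6.71 (SE 0.42) with FOXO1AAA. *Ccnd2*, a cyclin gene, fell by 1.84 (SE 0.26) and rose by 3.03 (SE 0.28). *Cdc25a*, a cell cycle phosphatase gene, rose by 3.06 (SE 0.24) with c-MYC.

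*Hmga2* (chr10:120361275-120476469, minus strand) was read almost only in c-MYC/FOXO1AAA tumors. NL 1 to NL 4 held 1, 0, 3 and 0 reads of it, and the c-MYC libraries 0, 0 and 1. The c-MYC/FOXO1AAA libraries held 822, 788 and 573 reads, at 9.02, 7.14 and 7.91 FPKM, which is 8.02 ± 0.947 (SD, n = 3). No fold change of c-MYC against NL is given, since both were at 3 reads or fewer in every library. Per scaled library size, the pooled reads with FOXO1AAA were 1636 times those of c-MYC tumors, with an interval of 293 to 64665, and 289 times those of NL, with an interval of 113 to 1061. The 95% intervals are exact (Clopper-Pearson) and cover counting error only. The fitted log2 fold changes, 7.79 (SE 0.48) against c-MYC and 7.30 (SE 0.45) against NL, depend on the prior count and are a description, since the gene entered the test through the group in which it is high. In c-MYC/FOXO1AAA the level lay between the 47.6th and 53.7th percentile of tested genes.

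The *Hmga2* promoter is shown because *Hmga2* held at most 1 read in a c-MYC library and at least 573 in each library with FOXO1AAA. It lies at chr10:120476420-120476719 on the minus strand (RefSeq, GRCm38.p6), printed 5′ to 3′, with no capitals because none of the 3 motifs occurred.
Hmga2: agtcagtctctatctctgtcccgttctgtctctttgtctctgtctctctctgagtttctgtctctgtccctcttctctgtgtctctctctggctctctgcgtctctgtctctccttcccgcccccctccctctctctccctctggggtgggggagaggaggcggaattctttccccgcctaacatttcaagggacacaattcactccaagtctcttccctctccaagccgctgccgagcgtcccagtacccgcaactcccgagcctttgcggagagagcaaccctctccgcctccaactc
The forkhead motif GTAAACA occurred in 3.65% of all windows and in 2.95% of the windows of tested genes. It was found in none of the windows of *Gpc3*, *Igf2bp2* and *Hmga2*, the genes that rose with FOXO1AAA, nor in those of *Afp*, *Igf2bp3* and *Hmga1*. This says only that these letters are not in 300 bases.

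*Hmga1* (chr17:27556497-27563674, plus strand) was high in both tumor groups. Its level was 16.1, 6.00, 11.4 and 11 FPKM in NL 1 to NL 4, 143, 171 and 172 FPKM in c-MYC, and 108, 148 and 93.7 FPKM in c-MYC/FOXO1AAA. Both tumor groups lay far above NL and overlapped each other. *Hmga1* rose by 3.94 (SE 0.29, adjusted p = 2.09e-06 in limma) in c-MYC and by 3.45 (SE 0.29, adjusted p = 4.06e-06) in c-MYC/FOXO1AAA against NL. Between the tumor groups the log2 fold change was −0.49 (95% interval −1.17 to 0.19). These values are uncertain because reads may be split with *Hmga1b*, a near-identical copy at chr11:120762794-120764419, and how such reads were counted is not given in the sources used here. Over 715 aligned bases, 68.4% of the *Hmga1* transcript, 714 bases were identical. *Hmga1b* measured 10.2 to 29.5 FPKM in NL, 193 to 232 in c-MYC tumors and 144 to 180 with FOXO1AAA. *Hmga1* made up 36.9% ± 1.12 of the level of both in NL, 43.0% ± 0.728 in c-MYC and 42.3% ± 2.85 in c-MYC/FOXO1AAA (SD, n = 4, 3 and 3).

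Within the *Hmga* family, *Hmga2* reached 4.82% to 8.44% of the *Hmga1* level in c-MYC/FOXO1AAA. The ratio was 0.0187% to 0.0271% in c-MYC and 0.290% to 1.01% in NL, where the *Hmga2* term is close to the prior count. Of 14 other genes of HMG proteins, with *Hmga1b* among them, 12 were tested. In c-MYC versus NL 7 rose and 0 fell, beside 24.5% and 23.6% of all tested genes, with a median of 1.09 against 0.08. At an unadjusted p under 0.05, 1 was lower, and voom called 0 lower. *Hmgb2*, a chromatin protein gene of dividing cells, rose by 3.81 (SE 0.26). In c-MYC/FOXO1AAA versus c-MYC 15.9% of all tested genes were called higher and 12.7% lower. Of the 12 HMG genes, 1 rose and 0 fell, by limma, voom and at an unadjusted p under 0.05 alike. That gene was *Hmgn3*, a nucleosome-binding protein gene, which rose by 5.42 (SE 0.30) from 0.611 ± 0.192 to 25.4 ± 3.36 FPKM (SD, n = 3).

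**Figure D5:**
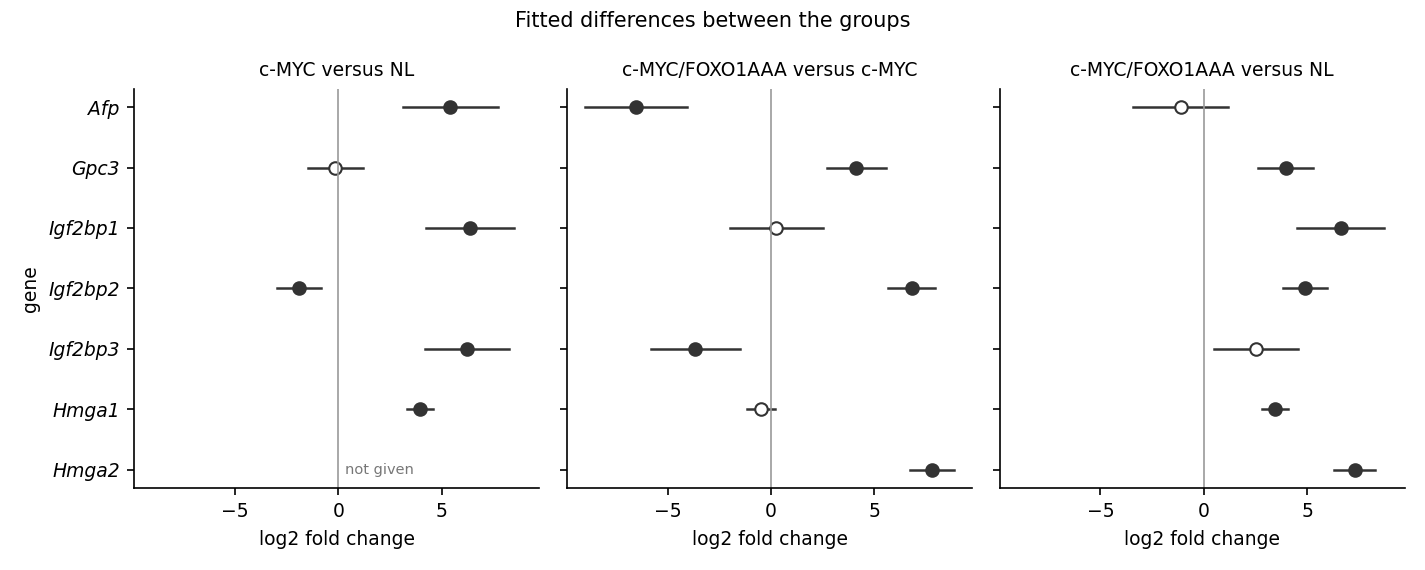
Fitted log2 fold changes of the 7 genes with 95% intervals in the 3 comparisons, filled where called. *Hmga2* is left out of c-MYC versus NL, and *Gpc3*, *Igf2bp2* and *Hmga2* lie from 4.12 to 7.79 in c-MYC/FOXO1AAA versus c-MYC, opposite to *Afp* and *Igf2bp3*.

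Other markers of the fetal liver and of liver cancer moved in both directions. Of 15 listed, 14 were tested. In c-MYC versus NL 9 rose and 2 fell, beside 24.5% and 23.6% of all tested genes, with a median of 4.21 against 0.08. With FOXO1AAA added 3 rose and 4 fell, beside 15.9% and 12.7%, with a median of −0.83 against 0.03. *Peg10*, an imprinted gene derived from a retrotransposon, rose by 6.26 (SE 0.78) with c-MYC and measured 18.0 and 18.2 FPKM in the tumor groups, with 4.57 to 24.9 among the c-MYC libraries. *H19*, the imprinted RNA beside *Igf2*, rose by 5.46 (SE 0.72) in c-MYC versus NL and measured 17907 ± 2105 and 8134 ± 1303 FPKM (SD, n = 3) in c-MYC and c-MYC/FOXO1AAA. Its log2 fold change between these tumor groups, −1.15 (SE 0.77), was not called. *Sall4*, a fetal zinc finger factor, fell by 3.61 (SE 0.74) with FOXO1AAA, *Spink1*, a secreted protease inhibitor, by 3.86 (SE 1.21), with levels from 0.677 to 27.2 FPKM among those libraries, and *Epcam*, a progenitor adhesion protein, by 3.00 (SE 0.40). *Cd24a*, a progenitor surface protein, rose by 9.73 (SE 0.51), from 0.454 ± 0.271 to 339 ± 72.7 FPKM (SD, n = 3). *Cpe*, the gene of carboxypeptidase E, rose by 8.52 (SE 0.64) and had fallen by 2.29 (SE 0.60) in c-MYC versus NL. *Aldoc*, the gene of aldolase C, fell by 2.02 (SE 0.12) and by a further 1.61 (SE 0.13).

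By Pearson correlation of log2 FPKM over the 10 libraries, which mainly follows the group means, different genes were most like each member. For *Afp* they were *Mogat2* (r = 0.997), *Ggt1* (0.995) and *Clic5* (0.994). For *Igf2bp3* they were *Elf3* (0.994), *Dusp9* (0.983) and *Adap1* (0.983). *Peg10* (0.994), *Arhgap11a* (0.989) and *Fgd1* (0.987) were most like *Igf2bp1*, and *Hmga1b* (0.999), *Rae1* (0.999) and *Cdca2* (0.998) most like *Hmga1*. For *Hmga2* they were *4930425P05Rik* (0.996), *Myom2* (0.996) and *Gli2* (0.994), for *Igf2bp2* *Map9* (0.991), *Spef1* (0.989) and *Crim1* (0.988), and for *Gpc3* *Rap2b* (0.973), *Col9a2* (0.969) and *Cmtm3* (0.965). Among the members, *Igf2bp1* and *Hmga1* (r = 0.97), *Igf2bp2* and *Hmga2* (0.93), *Gpc3* and *Igf2bp2* (0.92) and *Gpc3* and *Hmga2* (0.90) ran closest. *Afp* was closest to *Igf2bp3* (0.82) and ran against *Igf2bp2* (−0.71).

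NL 1 stood above the other normal livers in 5 of the 7 genes. It held the highest level of *Afp*, *Gpc3*, *Igf2bp1*, *Igf2bp3* and *Hmga1* in NL, and its proliferation markers summed to 66.2 FPKM against 42.4 to 51.0 in the other NL libraries. Its erythroid markers, 7 of 8 measured, summed to 2224 FPKM against 1121 to 1346, while both tumor groups lay between 132 and 533. Without it the NL mean went from 0.103 to 0.0352 FPKM for *Igf2bp1* and from 0.25 to 0.101 FPKM for *Igf2bp3*, so that the distance of the tumors from NL grew. The part of these markers in the NL 1 values was not tested.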

How the data were processed

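RNA-seq was read in 10 libraries, grouped by their titles. The deposited values are log2 FPKM, and the authors worked in edgeR and converted identifiers to symbols. The labels name GRCm38 and FastQC 0.11.7. The aligner and counter are not given in the sources used here. The design text of the series describes another experiment and was not used. By their lowest values they hold a prior count of 2 scaled to library size, so that log2 fold changes understate low genes. Whole reads were recovered for 99.89% of 16697 entries (tolerance 0.03 reads) and served for read counts, ratios and voom. A further 372 entries without symbol or value were left out. FPKM are 2 to the power of the deposited value and include the prior count.

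The main fit used limma 3.58.1 (R 4.3.3, statmod 1.5.0) with a mean per group over all 10 libraries, treat at 1.5-fold, 2-sided, with trend and robust estimation. The count model of the study was not used since log2 FPKM are no counts. The methods give each sample as a mouse, while the labels do not. Replicate numbers did not pair the libraries. The members, lists and tests were chosen with earlier results of these data known. Named genes were the members, the 2 largest called changes each way per list in c-MYC versus NL and c-MYC/FOXO1AAA versus c-MYC, other list genes by role, and for each member the 3 genes with the highest correlation. A few list genes are not reported here by name. Alternatives were other pseudocounts, filters, scalings, thresholds, variance settings, groups fitted, a replicate block, each library left out, and voom. Ratios without the prior count were added after seeing the data. Positions are those of GENCODE M21, matched by symbol.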

Additional observations from a re-analysis of the deposited data

How the results depend on the processing

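The numbers called among the 7 genes stayed within 1.5 times of 5 in each comparison under every alternative but 1. A filter at a mean FPKM of at least 5 kept 3 of the genes and called 2 in each comparison, since fewer genes were tested. *Afp*, *Igf2bp1*, *Igf2bp3* and *Hmga1* for c-MYC against NL kept direction and call under every alternative in which they were tested. So did *Afp*, *Gpc3*, *Igf2bp2* and *Hmga2* between the tumors. So did *Gpc3*, *Igf2bp1*, *Igf2bp2*, *Hmga1* and *Hmga2* for FOXO1AAA tumors against NL. Yet *Igf2bp2* and *Hmga2* entered the test only through FOXO1AAA tumors, *Igf2bp3* through c-MYC tumors and *Igf2bp1* only through tumors. Sizes at low levels depended on the pseudocount. With a pseudocount of 1, the log2 fold change for c-MYC against NL was 2.40 for *Igf2bp1* and 3.19 for *Igf2bp3*, that between the tumors 3.00 for *Igf2bp2*, 3.12 for *Hmga2* and −2.57 for *Igf2bp3*, and that for FOXO1AAA tumors against NL 2.57 for *Igf2bp1*, 2.76 for *Igf2bp2*, 3.09 for *Hmga2* and 0.62 for *Igf2bp3*. *Gpc3* in c-MYC versus NL was never called and changed sign to 0.78 with an equal FPKM total, 0.05 with quantile normalization and 0.01 with the replicate block, and ranged from −0.67 to 0.20 with 1 library left out. *Igf2bp1* between the tumors ranged from −0.49 to 0.76 and its share from −0.970 to 12.1 percentage points, the *Igf2bp2* share against NL from −14.7 to 7.94, and the *Igf2bp* sum between the tumors from −4.73 to 2.05 FPKM, each with 1 library left out. *Igf2bp2* in c-MYC versus NL also lost its call with a pseudocount of 0.1 (log2 fold change −1.05) or 1 (−0.24), an equal FPKM total (−0.99), quantile normalization (−1.55) and a 2-fold threshold. *Igf2bp3* in c-MYC/FOXO1AAA versus NL was called with an equal FPKM total (3.64) and with no fold-change threshold. Of 552 counts of lists under alternatives, 533 were within 1.5 times.

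The replicate numbers did not pair the libraries, with correlations of deviations from −0.04 to 0.027 between libraries of the same number. With the replicate block, 4 genes were called for c-MYC against NL, 4 between the tumors and 5 for FOXO1AAA tumors against NL. *Igf2bp2* in the first (adjusted p = 0.0658) and *Igf2bp3* in the second (0.0582) lost their calls.

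Groups of 3 and 4 libraries limit these results, and levels under 10 reads per library, as for *Hmga2* in NL and c-MYC or *Igf2bp2* in c-MYC, carry large counting error.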
